A study of Mus musculus with 30 samples.

Results

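Leucine alone was compared directly with metformin alone in serum-deprived C2C12 myotubes, the multinucleated fibres that the mouse C2C12 myoblast line forms in culture. The comparison holds 12 of the 30 libraries of the study, chosen by their labels alone, with 6 treated with leucine (LEU) and 6 treated with metformin (MET). Both groups were differentiated for 4 days in 2% horse serum and then held for 4 days without serum, while they received 500 nM leucine or 100 nM metformin. The other groups are serum-deprived cells without treatment (SD), cells that received both compounds at those concentrations (MET+LEU) and cells left in 2% horse serum (2% HS), with 6 libraries in each. The concentrations of the compounds differ, so LEU vs. MET compares these doses and not matched ones. Low glucose DMEM, the base medium, already contains leucine, so the LEU group received an addition to leucine that every group had. All libraries come from an established line, and the labels number replicates without saying how the cultures were grown, so p-values measure the spread between these samples, which may be technical.

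Leucine is an essential amino acid that also acts as a signal. Inside the cell it binds Sestrin 2, which then releases GATOR2, and the kinase complex mTORC1 is recruited to the lysosome, where it promotes protein and ribosome synthesis. Metformin is a biguanide that inhibits complex I of the respiratory chain at high concentrations and is known for the activation of AMPK, a kinase that restrains mTORC1. Differentiated myotubes have left the cell cycle and fill with sarcomeres, the repeating contractile units in which titin, nebulin, myosin and actin are the main structural proteins. A C2C12 culture also keeps mononucleated cells that did not fuse, some of which can still divide.

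LEU and MET differed by a few modest shifts. Of 15907 genes tested by the edgeR quasi-likelihood test, 12 passed a Benjamini-Hochberg adjusted p of 0.05 (0.0754% of the genes tested), of which 7 were higher in LEU (0.044%) and 5 were lower (0.0314%). Proliferation genes lay on the low side, where cyclin A2 (Ccna2) differed by -26.4%, the mitotic kinesin Kif20a by -27.4% and the replication factor Pclaf by -35.0%. Titin (Ttn), the giant spring protein of the sarcomere, lay on the high side and rose by 20.5%. No called gene reached a log2 fold change of 1, and the sizes among the 12 ran from 0.15 to 0.62. At an unadjusted p under 0.05, 658 genes were higher in LEU (4.14%) and 722 were lower (4.54%).

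**Figure D1:**
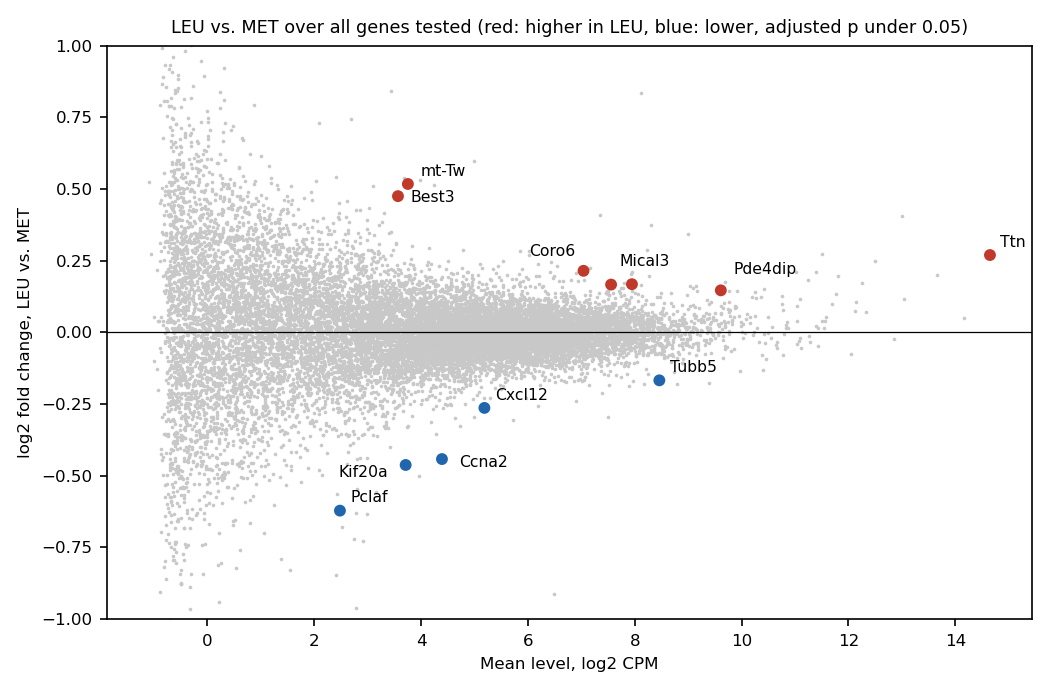
Each point is a gene, with its mean level (log2 CPM) on the horizontal axis and its log2 fold change in LEU vs. MET on the vertical axis. The 7 red points are genes called higher in LEU and the 5 blue points genes called lower, and 28 genes, none of them called, lie beyond the plotted range of 1 in either direction.

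The libraries of both groups were of like depth, between 14613457 and 16756628 counts in MET and between 14091627 and 17514000 in LEU. Myotube markers were abundant, with a summed level over 10 genes of 30038 to 33765 CPM (counts scaled to a library of 1e+06 with TMM factors) in MET and 36971 to 38855 CPM in LEU. Much of this sum was Ttn, which took 2.04% to 2.36% of all counts in MET and 2.61% to 2.81% in LEU. In LEU vs. MET, 7 of the 10 markers were above 0 and 3 were below, with only Ttn called. The markers of endothelial cells and adipocytes were at 10 counts or fewer in every MET and LEU library, as were Ptprc and Adgre1 among the 4 macrophage markers. Markers of fibroblasts summed to 5361 to 5691 CPM in MET and 5062 to 5433 CPM in LEU over 6 genes, of which Thy1 was at 10 counts or fewer. Most of the MET sum was the collagen gene Col3a1, at 4596 CPM in replicate 1 and 4758 to 4812 CPM in the others. Whether the cultures held fibroblasts was not tested. Cycling cell markers summed to 141 to 198 CPM in MET and 122 to 156 CPM in LEU over 6 genes. In bulk samples, fewer cells of a type and less RNA per cell cannot be told apart. The 10 most abundant genes took 8.84% to 9.82% of the counts in MET and 9.88% to 10.7% in LEU, and an exact permutation test, two-sided, gave an adjusted p of 0.00758 over 7 library measures, from the smallest p the test allows. Mean transcript length weighted by counts was also higher in LEU, at 7689 bases ± 99.6 (SD, n = 6), than in MET, at 7266 bases ± 133, with the same adjusted p in the exact permutation test. Without Ttn, whose transcript is very long, the same mean was 4977 bases ± 34.1 in LEU and 4982 bases ± 28.3 in MET. For the 10 most abundant genes the mean share was higher in LEU by 0.87 percentage points, and for Ttn alone by 0.42. The shares of nuclear ribosomal RNA, mitochondrial ribosomal RNA and mitochondrial mRNA, the GC content and the total counts did not pass the exact permutation test, with adjusted p from 0.0909 to 0.823.

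The levels of the called genes can be read library by library. Ccna2, the cyclin that drives S phase and entry into mitosis (chromosome 3, 36564865 to 36572150, GRCm38), ran from 20.2 to 27.7 CPM in MET with a median of 22.7, and from 14.2 to 19.4 CPM in LEU with a median of 17.1. All 6 LEU libraries were below all 6 MET libraries. The log2 fold change was -0.44 ± 0.076 (SE), with an adjusted p of 0.00894, and it was the only call that held in each of the 12 fits that left out a single MET or LEU library. Among all genes tested, all 6 LEU libraries were below all 6 MET libraries for 84 genes (0.528%) and above them for 76 (0.478%), and the groups did not overlap for 11 of the 12 called genes.

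Kif20a, a kinesin of the central spindle in late mitosis (chromosome 18, 34624613 to 34633277), ran from 13.4 to 19.1 CPM in MET with a median of 13.9, and from 9.67 to 11.8 CPM in LEU with a median of 10.9. The groups did not overlap, but MET replicate 6, at 19.1 CPM, stood apart from the other 5 MET libraries, which lay between 13.4 and 14.3 CPM. The log2 fold change was -0.46 ± 0.092 (adjusted p = 0.0229), and without MET replicate 6 it was -0.38 with an adjusted p of 0.0689. Pclaf, a PCNA-binding factor of DNA replication and repair (chromosome 9, 65890237 to 65903266), ran from 6.24 to 7.84 CPM in MET with a median of 6.92, and from 3.89 to 5.80 CPM in LEU with a median of 4.45. It held the largest fold change of the 12, a log2 value of -0.62 ± 0.13 (adjusted p = 0.0400), at 61 to 134 counts per library, and it passed in 1 of the 12 fits that left out a library.

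Tubb5, a beta-tubulin of the microtubules (chromosome 17, 35833921 to 35838306), ran from 368 to 390.4 CPM in MET with a median of 375, and from 330.5 to 342 CPM in LEU with a median of 334. This was a small difference in a gene with little spread, a log2 fold change of -0.17 ± 0.032 (adjusted p = 0.0214), and the groups did not overlap. Cxcl12, a secreted chemokine that attracts cells carrying CXCR4 (chromosome 6, 117168535 to 117181367), ran from 39.01 to 44.9 CPM in MET with a median of 42.2, and from 31.3 to 36.99 CPM in LEU with a median of 35.8. Its log2 fold change was -0.26 ± 0.055 (adjusted p = 0.0275), and again the groups did not overlap.

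On the high side, Ttn (chromosome 2, 76703980 to 76982547) was the most abundant called gene and ran from 19869 to 23167 CPM in MET with a median of 22487, and from 25968 to 27974 CPM in LEU with a median of 26347. All 6 LEU libraries were above all 6 MET libraries, and the share of all counts on Ttn was 2.04% to 2.36% in MET and 2.61% to 2.81% in LEU. The log2 fold change was 0.27 ± 0.053 (adjusted p = 0.0262), and with an offset for transcript length, an alternative chosen after the data were seen, it was 0.18 with an adjusted p of 0.0375. When MET and LEU libraries were left out 1 at a time, Ttn passed the threshold in 3 of 12 fits, those without MET replicate 2, 5 or 6.

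The other muscle and cytoskeletal genes that rose were smaller in level. Mical3, an enzyme that oxidises actin and takes part in vesicle transport (chromosome 6, 120931707 to 121130999), ran from 162 to 171 CPM in MET with a median of 168, and from 179 to 192 CPM in LEU with a median of 189 (log2 fold change 0.17 ± 0.033, adjusted p = 0.0229). Every LEU library was above every MET library.

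Coro6, a member of the coronin family of actin-binding proteins (chromosome 11, 77462411 to 77470484), ran from 99.7 to 119 CPM in MET with a median of 109, and from 122.6 to 132 CPM in LEU with a median of 127 (log2 fold change 0.21 ± 0.045, adjusted p = 0.0262). Pde4dip, myomegalin, a scaffold of the centrosome and Golgi that also binds a phosphodiesterase (chromosome 3, 97689824 to 97888707), ran from 668 to 723 CPM in MET with a median of 715, and from 755 to 814 CPM in LEU with a median of 777 (log2 fold change 0.15 ± 0.030, adjusted p = 0.0262). The groups were separate in both. Best3, a bestrophin of the chloride channel family (chromosome 10, 116986314 to 117025040), ran from 8.00 to 9.87 CPM in MET with a median of 8.78, and from 8.98 to 13.8 CPM in LEU with a median of 13.1 (log2 fold change 0.47 ± 0.10, adjusted p = 0.0262). Best3 was the only called gene whose groups overlapped, since LEU replicate 6 lay within the range of the MET libraries while the other 5 LEU libraries were above it.

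Also called was mt-Tw, the mitochondrial gene for the tryptophan transfer RNA. The gene is on the mitochondrial genome at bases 4950 to 5016 of GRCm38, forward strand, and its first 2 bases are also the last 2 of mt-Nd2, a complex I subunit gene on the same strand. Its 67 bases are shown because it was called next to a much more abundant gene, with the shared bases in capitals, as the GENCODE M21 transcripts give them.
mt-Tw: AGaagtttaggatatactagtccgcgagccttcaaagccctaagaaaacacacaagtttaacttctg
mt-Tw ran from 9.66 to 11.4 CPM in MET with a median of 11.1, and from 14.8 to 17.6 CPM in LEU with a median of 14.9. All LEU libraries were above all MET libraries (log2 fold change 0.52 ± 0.095, adjusted p = 0.0152). Its neighbours were picked with their values known. The level of mt-Nd2 was 1649.7 CPM ± 260.1 in MET and 1802 CPM ± 86.6 in LEU (SD, n = 6), and its groups overlapped (log2 fold change 0.13 ± 0.19, adjusted p = 0.903). The next transfer RNA gene, mt-Ta, was at 1.07 CPM ± 0.461 in MET and 0.98 CPM ± 0.472 in LEU (log2 fold change -0.14 ± 0.29, adjusted p = 0.937). Of 22 mitochondrial transfer RNA genes, 9 had enough counts to be tested, and mt-Tw was the only member called, with a median log2 fold change over the 9 of 0.043.

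**Figure D2:**
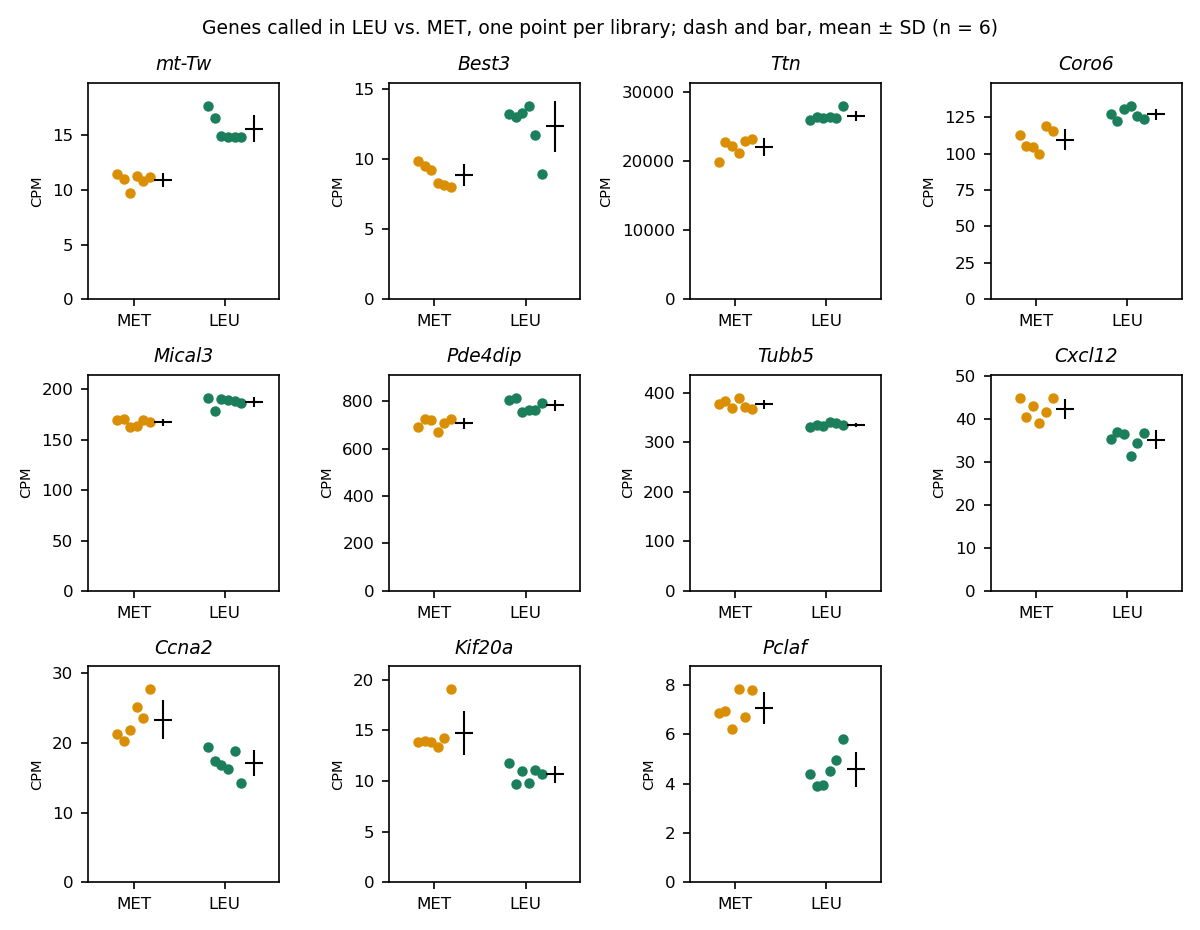
Each of 11 panels shows a called gene in CPM (vertical axis from 0), with a point for each MET (orange) and LEU (green) library and the mean ± SD (n = 6) beside them. The groups are separate in every panel except Best3, where 1 LEU library lies within the MET range.

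The levels of the called genes in SD, MET+LEU and 2% HS place the treatments. LEU vs. SD and MET vs. SD share the SD libraries, so their values are given side by side and not compared further. For Ccna2 the mean was 25.01 CPM ± 1.80 (SD, n = 6) in the SD group, 15.7 CPM ± 1.81 in MET+LEU and 23.2 CPM ± 1.67 in 2% HS, with log2 fold changes vs. SD of -0.10 ± 0.074 in MET and -0.54 ± 0.076 in LEU. For Kif20a the values vs. SD were -0.013 ± 0.089 in MET and -0.48 ± 0.092 in LEU, and for Pclaf they were 0.12 ± 0.13 in MET and -0.50 ± 0.14 in LEU. For Ccna2 and Kif20a both values were below 0, and for Pclaf the MET value was above 0 and the LEU value below it.

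For Ttn the mean was 24592 CPM ± 1419.8 in SD, 24363 CPM ± 2932 in MET+LEU and 30972 CPM ± 1212 in 2% HS, with log2 fold changes vs. SD of -0.16 ± 0.053 in MET and 0.11 ± 0.053 in LEU. The values vs. SD were -0.10 ± 0.033 in MET and 0.069 ± 0.033 in LEU for Mical3, -0.15 ± 0.045 in MET and 0.061 ± 0.044 in LEU for Coro6 and -0.10 ± 0.030 in MET and 0.048 ± 0.030 in LEU for Pde4dip. They were -0.25 ± 0.10 in MET and 0.23 ± 0.10 in LEU for Best3 and -0.17 ± 0.10 in MET and 0.35 ± 0.094 in LEU for mt-Tw. For these 6 genes the SD level lay between the MET and LEU levels. Cxcl12 had 0.15 ± 0.055 in MET and -0.11 ± 0.056 in LEU, and Tubb5 had 0.021 ± 0.032 in MET and -0.15 ± 0.032 in LEU.

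The 47 genes of mitosis and DNA replication lay in the direction of Ccna2 and Kif20a. In LEU vs. MET, 2 of the 47 were called, both lower, and 18 (38.3%) were lower at an unadjusted p under 0.05, against 4.54% of all genes, while 0 were higher. The log2 fold change was below 0 for 46 of the 47, with a median of -0.20, where the median over all genes tested was 2.3e-04 and 7937 of 15907 were below 0. The exception was Cdt1, a licensing factor of replication, which was above 0. The mean log2 CPM of the members lay between 3.69 and 3.95 in the 6 MET libraries and between 3.55 and 3.67 in the 6 LEU libraries, so every LEU library was below every MET library. Leaving out MET replicate 6 moved the median to -0.13, the smallest size in the alternatives run, and leaving out LEU replicate 1 moved it to -0.22. The summed cycling cell markers moved with this list, as given above, and their part in the result was not tested.

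Members of several steps of the cycle, named after their values were seen, show the size and the spread. Mcm3, a subunit of the replicative helicase, ran from 12.6 to 17.03 CPM in MET with a median of 15.2, and from 10.8 to 13.5 CPM in LEU with a median of 11.8 (log2 fold change -0.33 ± 0.082, adjusted p = 0.106). Top2a, the topoisomerase that untangles sister chromosomes, ran from 50.8 to 68.1 CPM in MET with a median of 53.7, and from 39.6 to 52.4 CPM in LEU with a median of 45.4 (log2 fold change -0.31 ± 0.075, adjusted p = 0.109). Hmmr, a spindle-associated hyaluronan receptor, ran from 9.19 to 14.2 CPM in MET with a median of 11.01, and from 7.25 to 9.86 CPM in LEU with a median of 8.69 (log2 fold change -0.40 ± 0.10, adjusted p = 0.109). In each of these genes 5 of the 6 LEU libraries were below the lowest MET library, and none passed the adjusted threshold.

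Plk1, a kinase of mitotic entry, ran from 6.53 to 8.45 CPM in MET and from 5.35 to 6.45 CPM in LEU, without overlap (log2 fold change -0.31 ± 0.12, adjusted p = 0.393). Ccnb1, the mitotic cyclin B1, ran from 5.59 to 9.71 CPM in MET and from 5.69 to 6.71 CPM in LEU, with LEU inside the MET range (log2 fold change -0.34 ± 0.11, adjusted p = 0.277). Cdk1, the kinase that cyclins A and B activate, was at a log2 fold change of -0.23 ± 0.10 (adjusted p = 0.496). Mki67, which codes for the Ki-67 proliferation antigen, ran from 62.3 to 97.7 CPM in MET and from 58.3 to 73.7 CPM in LEU (log2 fold change -0.26 ± 0.11, adjusted p = 0.511), with 2 LEU libraries below the lowest MET library.

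When the MET and LEU libraries were fitted alone, without the other 3 groups, 6 of the 47 genes were called lower and 0 higher. In that fit 79 of 15039 genes were lower (0.525%) and 85 were higher (0.565%), and all 12 genes called over the 30 libraries were among them. The count of called members ran from 1 to 7 over the alternatives, all of them lower, and was 1 without MET replicate 6 and without each of LEU replicates 1 to 5. The 6 cycling cell markers, which overlap this list, had a median of -0.24, with all 6 below 0 and 0 called.

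Most members of this list held a CCAAT match in the promoter, which describes a list made by function and not the difference between LEU and MET. The letters CCAAT were searched on both strands in the 250 bases before any listed start of a gene. They occurred in 31 of the 41 members that had a RefSeq promoter for GRCm38 (75.6%). Of all 27025 genes with a promoter, whether or not they were tested here, 10133 had them (37.5%). TTTGAA, the letters of a cell cycle element, was searched in the same way and occurred in 12 of the 41 (29.3%), against 18.3% of the 27025 genes. A match of letters is a description and not a binding site. The 150 bases before the start are shown for Mcm3, Hmmr and Top2a, with matches on either strand in capitals. They were chosen by their low p among the members whose promoter could be read. The chromosome of Kif20a was left out of this choice, so that called member is not shown. The called Ccna2 had no promoter entry. The stretches are chr1:20820313-20820462 for Mcm3, chr11:40733438-40733587 for Hmmr and chr11:99024190-99024339 for Top2a, all on the reverse strand of GRCm38 and read 5′ to 3′.
Mcm3: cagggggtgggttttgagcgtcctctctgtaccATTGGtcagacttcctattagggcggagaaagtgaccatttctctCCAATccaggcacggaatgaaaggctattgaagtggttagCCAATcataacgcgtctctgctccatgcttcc
Hmmr: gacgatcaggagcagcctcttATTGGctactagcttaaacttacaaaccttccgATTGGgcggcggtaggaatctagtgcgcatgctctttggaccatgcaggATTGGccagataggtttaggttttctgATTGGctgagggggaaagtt
Top2a: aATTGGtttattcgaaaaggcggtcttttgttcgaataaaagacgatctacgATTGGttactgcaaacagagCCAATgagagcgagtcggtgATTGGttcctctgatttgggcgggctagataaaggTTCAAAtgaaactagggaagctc

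The clustered histone genes, most of which are transcribed in S phase, leaned the same way. Of 68 genes 57 were tested and 0 were called. Among the 57, 13 (22.8%) were lower in LEU at an unadjusted p under 0.05, against 4.54% of all genes, and 0 were higher. The log2 fold change was below 0 for 40, with a median of -0.14, which was -0.091 without MET replicate 6. Hist1h3c, a core histone gene, was at 6.92 CPM ± 0.915 in MET and 5.03 CPM ± 0.611 in LEU (SD, n = 6) (log2 fold change -0.46 ± 0.13, adjusted p = 0.182). Hist1h2bf was at a log2 fold change of -0.37 ± 0.12 (adjusted p = 0.322). The most abundant members, the linker histone genes H1f0 and Hist1h1c, were at -0.035 ± 0.032 and 0.014 ± 0.069. Many of these genes are near-identical copies of each other, so how reads were divided between them is uncertain.

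**Figure D3:**
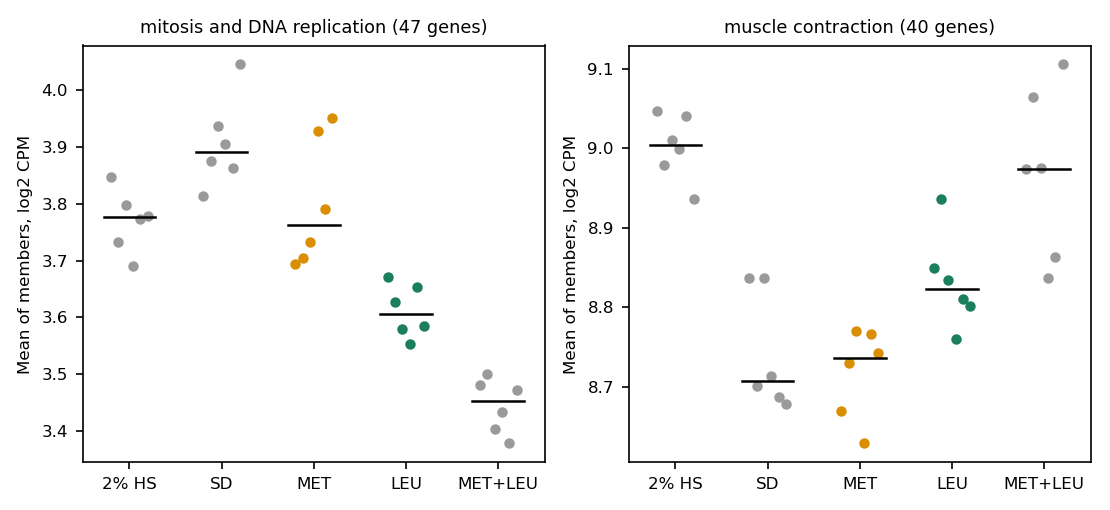
Each point is a library, with the mean log2 CPM of the tested members of a list on the vertical axis (not starting at 0) and the 5 groups on the horizontal axis, and the line marks the group median. For mitosis and DNA replication the LEU libraries (green, 3.55 to 3.67) lie below the MET libraries (orange, 3.69 to 3.95), and for muscle contraction 5 of 6 LEU libraries lie above the highest MET library.

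Over the 5 groups the mitosis and DNA replication list had its highest median level in SD, 3.89, followed by 2% HS at 3.78, MET at 3.76, LEU at 3.61 and MET+LEU at 3.45 (log2 CPM, mean of members). The ranges of 2% HS (3.69 to 3.85) and MET overlapped, and those of LEU and MET+LEU (3.38 to 3.50) did not. Beside SD, the median log2 fold change of the members was -0.086 after metformin, -0.30 after leucine and -0.53 after the combination, from comparisons that share the SD libraries.

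Contractile genes lay on the other side. Of 41 genes 40 were tested, and Ttn was called higher, while 15 (37.5%) were higher at an unadjusted p under 0.05 against 4.14% of all genes, and 0 were lower. The log2 fold change was above 0 for 38 of the 40, with a median of 0.11, and the exceptions were Mylpf, a fast light chain, and Casq2, a calsequestrin. The mean log2 CPM of the members ran from 8.63 to 8.77 in MET and from 8.76 to 8.94 in LEU, and 5 of the 6 LEU libraries were above the highest MET library. Over all genes tested it ran from 3.764 to 3.778 in MET and from 3.772 to 3.785 in LEU, with 4 LEU libraries above the highest MET library. The median lay between 0.087 and 0.12 in the alternatives run. Calls among the members ran from 0 to 8 over these alternatives, all of them higher. The 8 came with the MET and LEU libraries alone, and 0 were called with only the serum-deprived libraries (SD, MET, LEU and MET+LEU), with the filter of more than 5 counts in total, without MET replicate 1, 3 or 4 and without any 1 of the 6 LEU libraries.

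Among single genes, Myh1, the fast IIx myosin heavy chain, ran from 1679 to 1965 CPM in MET with a median of 1792, and from 1981 to 2201 CPM in LEU with a median of 2104. The groups did not overlap (log2 fold change 0.21 ± 0.058, adjusted p = 0.179). Neb, nebulin, the ruler of the thin filament, named after its values were seen, as were the 4 genes that follow, ran from 2134 to 2438 CPM in MET and from 2562 to 2738 CPM in LEU, also without overlap (log2 fold change 0.21 ± 0.060, adjusted p = 0.222). The myosin light chain Myl1 was at a log2 fold change of 0.15 ± 0.054 (adjusted p = 0.385) and cardiac actin Actc1 had 0.12 ± 0.045 (adjusted p = 0.385), each with no overlap between the groups.

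The calcium handling genes Cacna1s, the voltage sensor of the T tubule, and Ryr1, the calcium release channel, were at 0.14 ± 0.039 (adjusted p = 0.177) and 0.10 ± 0.036 (adjusted p = 0.329), each with 5 of 6 LEU libraries above the highest MET library. None of these 6 genes passed the adjusted threshold, while all of them had a higher mean in LEU. The 10 myotube markers, several of which stand in this list, had a median of 0.11 with Ttn called.

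The promoter of Ttn is shown because it was the called gene with the highest level (chr2:76982548-76982697, GRCm38, reverse strand, 150 bases before the start, from RefSeq, with a CCAAT match in capitals). CAGCTG, the letters of an E-box that myogenic factors can bind, was searched on both strands of the 250 bases before the start and is not in the 150 bases shown. Other forms of the E-box were not searched, so the stretch may hold one. CAGCTG occurred in 15 of 35 contractile genes with a promoter (42.9%), against 14.7% of all genes with one, tested here or not. This share describes the list and not LEU vs. MET.
Ttn: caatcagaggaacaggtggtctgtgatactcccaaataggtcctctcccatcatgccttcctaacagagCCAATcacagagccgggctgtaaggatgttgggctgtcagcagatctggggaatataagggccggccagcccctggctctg

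Across the groups, the contractile list had its highest median level in 2% HS, 9.005, followed by MET+LEU at 8.97, LEU at 8.82, MET at 8.74 and SD at 8.71 (log2 CPM, mean of members). The ranges of MET (8.63 to 8.77) and SD (8.68 to 8.84) overlapped, as did those of LEU and MET+LEU (8.84 to 9.11). Beside SD, the median log2 fold change of the members was -0.050 after metformin, 0.050 after leucine and 0.18 after the combination. For MET vs. SD the sign of this median differs from the order of the median levels of the libraries.

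The factors that build muscle had a median near 0 as a list. Of 22 tested myogenic and fusion genes 0 were called, with 12 above 0 and a median of 0.0027. Among them 4 (18.2%) were higher at an unadjusted p under 0.05, against 4.14% of all genes, and 0 were lower. Myod1, the factor that commits cells to muscle, was at 259 CPM ± 19.6 in MET and 283 CPM ± 18 in LEU (log2 fold change 0.13 ± 0.059, adjusted p = 0.551), and Dysf, dysferlin, of membrane repair, had 0.091 ± 0.038 (adjusted p = 0.490). Myogenin, Myog, was at 1057 CPM ± 15 in MET and 1043 CPM ± 16.6 in LEU, and Igfbp5, a binding protein of insulin-like growth factors, was at 2376 CPM ± 82.05 in MET and 2399 CPM ± 205 in LEU, differences within the spread. The 8 markers of undifferentiated or reserve myoblasts had a median of 0.044 with 0 called.

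**Figure D4:**
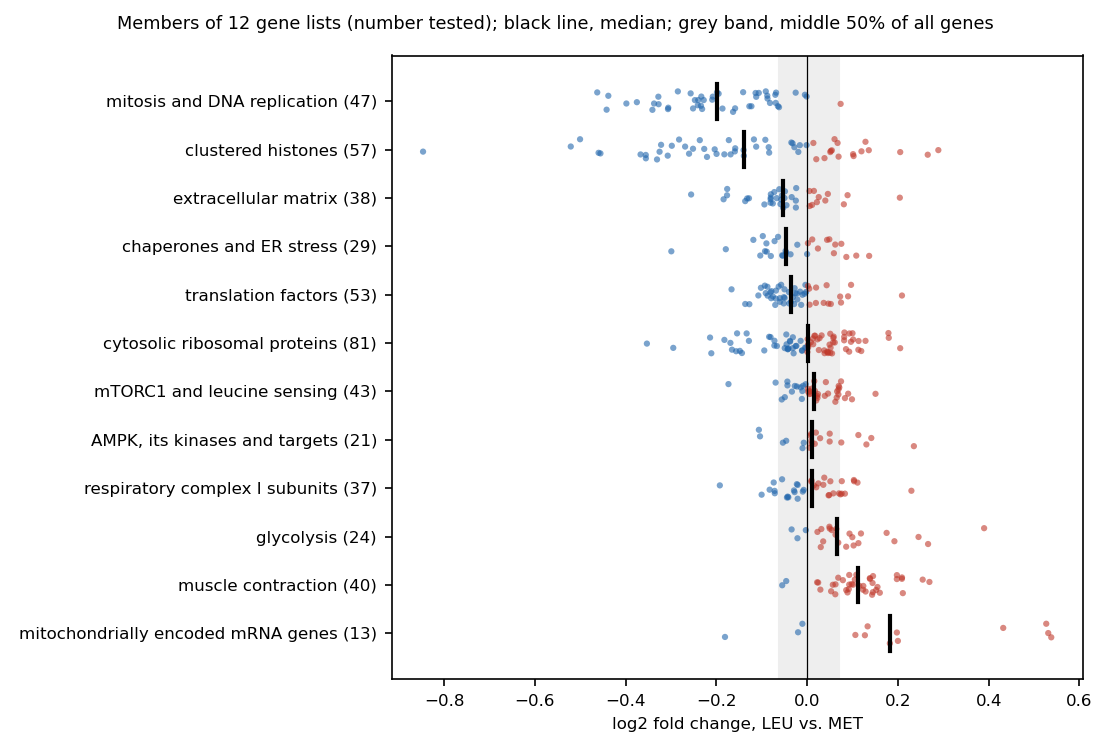
Each point is a tested member of 1 of 12 gene lists, at its log2 fold change in LEU vs. MET on the horizontal axis (blue below 0, red above), with the number of members tested in brackets. The black line marks the median, from -0.20 for mitosis and DNA replication to 0.11 for muscle contraction and 0.18 for mitochondrially encoded mRNA genes, and the grey band is the interquartile range of all genes.

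Glycolysis, the route that supplies fast fibres, leaned toward LEU without a call. Of 24 genes 7 (29.2%) were higher at an unadjusted p under 0.05, against 4.14% of all genes, and 0 were lower. The log2 fold change was above 0 for 21, with a median of 0.066, which was 0.10 without LEU replicate 4. Gapdh was at 1094 CPM ± 47.5 in MET and 1188 CPM ± 47.4 in LEU (log2 fold change 0.12 ± 0.042, adjusted p = 0.360), and the muscle phosphoglycerate mutase Pgam2 had 0.19 ± 0.067 (adjusted p = 0.360). The abundant enzymes Aldoa and Pkm had 0.10 ± 0.046 and 0.054 ± 0.036.

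Mitochondrially encoded mRNA genes had the widest intervals of the lists. Of 13 genes 0 were called, 10 were above 0 and the median was 0.18, with a median half-width of the 95% interval of 0.39. The abundant mt-Co1, a core subunit of cytochrome oxidase, was at 11329 CPM ± 956 in MET and 13012 CPM ± 502 in LEU, with 5 of 6 LEU libraries above the highest MET library (log2 fold change 0.20 ± 0.10, adjusted p = 0.582). Cytochrome b, mt-Cytb, had 0.11 ± 0.15, and mt-Co3, at 10.99 CPM ± 3.50 in MET and 15.96 CPM ± 4.93 in LEU, had 0.54 ± 0.26 (adjusted p = 0.566). The level of mt-Co3 was far below that of mt-Co1, for a reason that was not tested. The mitochondrial ribosomal RNAs, which the library kit depletes, were at 0.17 ± 0.50 for mt-Rnr1 and 0.27 ± 0.53 for mt-Rnr2.

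The nuclear genes for the respiratory chain had medians nearer to 0. Of 37 nuclear complex I subunits, the complex that metformin inhibits, 0 were called, and the median was 0.0096 with 20 above 0. Ndufb7 and Ndufa10 had 0.23 ± 0.076 (adjusted p = 0.338) and 0.10 ± 0.036 (adjusted p = 0.343), and the core subunit Ndufs1 had 0.015 ± 0.036. Of 41 tested subunits of the other complexes 0 were called, and the median was -0.0034. The muscle cytochrome oxidase subunit Cox6a2 had 0.20 ± 0.084 (adjusted p = 0.510) and Cox7c had 0.092 ± 0.043 (adjusted p = 0.551), while the ATP synthase subunits Atp5b and Atp5a1 had 0.054 ± 0.039 and -0.057 ± 0.041.

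The genes that sense leucine and those that answer to AMPK were examined as the named pathways of the compounds. Of 43 tested genes of mTORC1 and leucine sensing 0 were called, with 29 above 0 and a median of 0.016. Among them 1 (2.33%) was higher at an unadjusted p under 0.05, against 4.14% of all genes, and 0 were lower. That gene was Rptor, which codes for the scaffold raptor of mTORC1 and ran from 184 to 195 CPM in MET and from 195 to 212 CPM in LEU, with no overlap (log2 fold change 0.10 ± 0.034, adjusted p = 0.341). Tsc2, the brake on mTORC1 through Rheb, had 0.069 ± 0.035 (adjusted p = 0.582), and Mtor itself, named after its values were seen, had 0.065 ± 0.038 (adjusted p = 0.656). The inhibitor Deptor, with a level of 425 CPM ± 12.6 in MET and 431 CPM ± 7.80 in LEU, was at 0.022 ± 0.033.

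The leucine sensor Sesn2 ran from 18.98 to 24.8 CPM in MET with a median of 22.2, and from 21.4 to 25.5 CPM in LEU with a median of 23.1. The groups overlapped, and the log2 fold change was 0.069 (95% interval -0.081 to 0.22), with an adjusted p of 0.852. For its relative Sesn1 the value was -0.027 (95% interval -0.13 to 0.079), and for the arginine sensor Castor1, which ran from 0.939 to 1.91 CPM in MET and from 1.37 to 1.95 CPM in LEU, it was 0.071 (95% interval -0.33 to 0.47). The wide interval of Castor1 gives little information on this gene.

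Of 17 transport genes 8 were tested and 0 were called. Slc7a5, the LAT1 leucine transporter, ran from 117 to 132 CPM in MET and from 114 to 128 CPM in LEU, a log2 fold change of 0.015 (95% interval -0.066 to 0.10), and its partner Slc3a2 had 0.068 ± 0.039 (adjusted p = 0.636). Slc7a6, another amino acid transporter, had -0.073 ± 0.059.

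Of 21 genes of AMPK, its kinases and targets 0 were called, with a median of 0.0095. Among them 4 (19.05%) were higher at an unadjusted p under 0.05, against 4.14% of all genes. By the same cut 2 (9.52%) were lower, against 4.54%. Acacb, the acetyl-CoA carboxylase that sits at the mitochondrial surface and is inhibited by AMPK, ran from 13.7 to 15.7 CPM in MET with a median of 15.1, and from 16.4 to 18.7 CPM in LEU with a median of 17.3 (log2 fold change 0.24 ± 0.069, adjusted p = 0.218). Its groups did not overlap. The muscle regulatory subunit Prkag3 had 0.14 ± 0.046 (adjusted p = 0.298) and the autophagy kinase Ulk1, named after its values were seen, had 0.13 ± 0.046 (adjusted p = 0.360). The catalytic subunits had 0.0067 (95% interval -0.067 to 0.080) for Prkaa1 and 0.0053 (95% interval -0.10 to 0.11) for Prkaa2, and the abundant members Tbc1d1 and Cab39 had 0.017 ± 0.031 and 0.0090 ± 0.043.

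**Figure D5:**
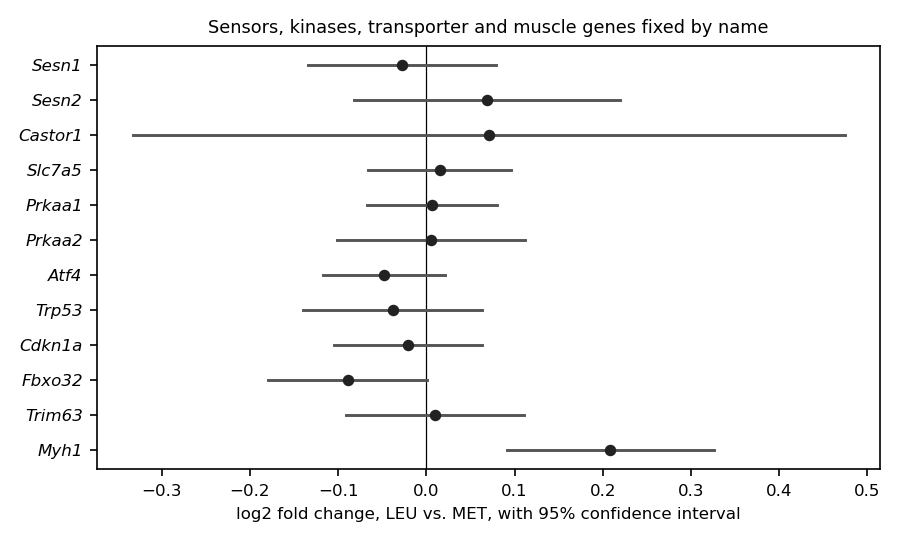
Points mark the log2 fold change in LEU vs. MET and lines its 95% confidence interval for 12 genes fixed by name, on a shared horizontal axis. The interval of Myh1 (0.091 to 0.33) leaves out 0, the other 11 hold it, and that of Castor1 is the widest (-0.33 to 0.47).

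Among 29 tested genes of ATF4 and the response to amino acid shortage 0 were called, and the median was 0.014. Atf4 itself was at 281 CPM ± 11.9 in MET and 272 CPM ± 7.71 in LEU, a log2 fold change of -0.048 (95% interval -0.12 to 0.021). Chac1, which degrades glutathione, had 0.23 ± 0.093 (adjusted p = 0.476), Psat1 of serine synthesis had -0.10 ± 0.039 (adjusted p = 0.393), and the amino acid transporter Slc38a2 had -0.028 ± 0.034. Of 20 aminoacyl-tRNA synthetases 0 were called and 0 had an unadjusted p under 0.05, with a median of 0.016. Vars and Rars, the members with the lowest p, had -0.053 ± 0.051 and 0.044 ± 0.052, and the abundant Eprs and Nars had 0.020 ± 0.037 and -0.014 ± 0.037.

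Of 26 genes of branched-chain amino acid breakdown, the route that leucine itself enters, 0 were called and the median was 0.0033. Hsd17b10 of isoleucine breakdown had 0.16 ± 0.057 (adjusted p = 0.385), Dbt, the core of the ketoacid dehydrogenase complex, had -0.18 ± 0.076 (adjusted p = 0.494), and Dld and Acadsb had 0.033 ± 0.042 and -0.040 ± 0.048.

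Genes of protein synthesis leaned slightly lower in LEU for the factors and lay near 0 for the ribosome. Of 53 tested translation factors 0 were called, with 39 below 0 and a median of -0.036, and 5 of 6 LEU libraries had a mean level below the lowest MET library. Among them 6 (11.3%) were lower at an unadjusted p under 0.05, against 4.54% of all genes. By the same cut 1 (1.89%) was higher, against 4.14%. Eif1a, a factor of translation initiation, ran from 86.9 to 93.8 CPM in MET and from 71.9 to 83.7 CPM in LEU, with all LEU libraries below all MET libraries (log2 fold change -0.17 ± 0.042, adjusted p = 0.106). Eif4a3, a helicase of the exon junction complex, had -0.14 ± 0.042 (adjusted p = 0.265). The elongation factors Eef1a1 and Eef2 had 0.073 ± 0.037 and -0.029 ± 0.039. Of 81 cytosolic ribosomal protein genes 0 were called and the median was 0.0023. At an unadjusted p under 0.05, 7 (8.64%) were higher, against 4.14% of all genes, and 6 (7.41%) were lower, against 4.54%. Rpl30 and Rpl26 had -0.13 ± 0.038 (adjusted p = 0.223) and -0.35 ± 0.12 (adjusted p = 0.385), while the abundant Rpsa and Rplp0 had 4.2e-04 ± 0.034 and -0.011 ± 0.070.

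Of 44 ribosome biogenesis genes 0 were called and the median was -0.016. Dkc1, the pseudouridine synthase, had -0.17 ± 0.058 (adjusted p = 0.358) and Rrp9 had -0.18 ± 0.077 (adjusted p = 0.486), and the abundant nucleolar genes Ncl and Npm1 had -0.065 ± 0.091 and -0.073 ± 0.050. Of 15 tested small nucleolar RNA host genes 0 were called and the median was -0.046, with Snhg3 at -0.25 ± 0.079 (adjusted p = 0.277), Gas5 at -0.11 ± 0.055 and Zfas1 at -0.026 ± 0.065. Of 46 spliceosome genes 0 were called, with a median of -0.023. Among them 7 (15.2%) were lower at an unadjusted p under 0.05, against 4.54% of all genes, and 0 were higher. The splicing factor Srsf1 ran from 184 to 195 CPM in MET and from 171 to 181 CPM in LEU, without overlap (log2 fold change -0.11 ± 0.034, adjusted p = 0.289), Hnrnpc had -0.10 ± 0.034 (adjusted p = 0.326), and Hnrnpu and Hnrnpk had -0.038 ± 0.066 and -0.016 ± 0.029.

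Of 29 chaperones and stress genes of the endoplasmic reticulum and cytosol 0 were called, with a median of -0.046. Among them 8 (27.6%) were lower at an unadjusted p under 0.05, against 4.54% of all genes. By the same cut 1 (3.45%) was higher, against 4.14%. Hspa5, the BiP chaperone of the endoplasmic reticulum, ran from 460.2 to 521 CPM in MET with a median of 480.3, and from 403 to 449.6 CPM in LEU with a median of 433. The groups did not overlap, and the adjusted p missed the threshold (log2 fold change -0.18 ± 0.040, adjusted p = 0.0603). Dnajc3, a partner of BiP, ran from 99.4 to 108 CPM in MET and from 87.7 to 99.2 CPM in LEU, also without overlap (log2 fold change -0.12 ± 0.041, adjusted p = 0.358). The higher gene was the small heat shock protein Cryab, named after its values were seen, at 0.14 ± 0.047 (adjusted p = 0.360), and the abundant Hspa8 and Hsp90ab1 had 0.024 ± 0.037 and 0.0016 ± 0.057.

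Of 35 proteasome subunits 0 were called, the median was -0.0035 and the median half-width of the 95% interval was 0.090. Psmd10 and Psmd11 had 0.18 ± 0.081 and 0.074 ± 0.036, and the abundant Psmc3 and Psmd2 had 0.061 ± 0.038 and -0.037 ± 0.038. Psmb10, which was counted in the interferon response list and not among these 35, had 0.26 ± 0.14. Of 23 genes of muscle E3 ligases and breakdown 0 were called, with a median of 0.0045. The atrophy ligases had -0.089 (95% interval -0.18 to 8.1e-04) for Fbxo32 and 0.0095 (95% interval -0.091 to 0.11) for Trim63. Gabarapl1 of autophagy had -0.19 ± 0.048 (adjusted p = 0.109) and the muscle calpain Capn3 had 0.21 ± 0.073 (adjusted p = 0.343), while Nedd4 and Sqstm1 had -0.020 ± 0.030 and -0.013 ± 0.055.

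The extracellular matrix list was lower in LEU by a small amount. Of 38 tested genes 0 were called, with 27 below 0 and a median of -0.054. Among them 9 (23.7%) were lower at an unadjusted p under 0.05, against 4.54% of all genes. By the same cut 3 (7.89%) were higher, against 4.14%. The mean log2 CPM of the members ran from 8.11 to 8.17 in MET and from 8.05 to 8.10 in LEU, so every LEU library was below every MET library. Col1a1, a chain of collagen I, ran from 704 to 827 CPM in MET with a median of 767, and from 606 to 734 CPM in LEU with a median of 674, with 5 LEU libraries below the lowest MET library (log2 fold change -0.18 ± 0.048, adjusted p = 0.160). Fmod, fibromodulin, which shapes collagen fibrils, had -0.26 ± 0.082 (adjusted p = 0.291), Col3a1 had -0.076 ± 0.032 (adjusted p = 0.496), and fibronectin, Fn1, had -0.025 ± 0.035. The summed fibroblast markers, which overlap this list, ran lower in LEU with overlapping ranges, and their part in the result was not tested.

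Among 33 tested genes of inflammation and secreted factors, Cxcl12 was called lower and the median was -0.012. The gelatinase Mmp2 and the vascular growth factor Vegfa were also picked with their values known. Mmp2 ran from 496 to 533 CPM in MET and from 451 to 489.8 CPM in LEU, with no overlap (log2 fold change -0.11 ± 0.034, adjusted p = 0.289), and Vegfa had 0.17 ± 0.055 (adjusted p = 0.296). Of 28 tested p53 targets and cell cycle inhibitors 0 were called, with a median of -0.039. Among them 3 (10.7%) were lower at an unadjusted p under 0.05, against 4.54% of all genes, and 0 were higher. The inhibitor Cdkn1a, p21, was at 2302 CPM ± 65.5 in MET and 2269 CPM ± 114 in LEU, a log2 fold change of -0.021 (95% interval -0.10 to 0.063), and Trp53 had -0.038 (95% interval -0.14 to 0.063). Trp53inp1 and Pmaip1 had -0.12 ± 0.049 (adjusted p = 0.441) and -0.15 ± 0.064 (adjusted p = 0.478), and Ccng1 had -0.051 ± 0.052.

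The remaining lists held no call. Over 32 genes of cholesterol and fatty acid synthesis the median was -0.021. The desaturase Fads2 ran from 61.6 to 70.04 CPM in MET and from 57.2 to 61.5 CPM in LEU, without overlap (log2 fold change -0.14 ± 0.043, adjusted p = 0.283), Dhcr7 of cholesterol synthesis had 0.16 ± 0.052 (adjusted p = 0.292), and the abundant desaturases Scd1 and Scd2 had 0.060 ± 0.036 and -0.044 ± 0.032. Over 24 tested interferon response genes the median was 0.0050, with Xaf1 at 0.38 ± 0.18 (adjusted p = 0.538), B2m at 0.059 ± 0.10 and H2-K1 at 0.048 ± 0.065. Over 29 immediate early genes the median was -0.0046, with Fosl1 at 0.49 ± 0.16 (adjusted p = 0.295), Fos at -0.22 ± 0.091 (adjusted p = 0.496), Fosl2 at -0.0054 ± 0.031 and Junb at -0.015 ± 0.070. The median over 24 NRF2 and metallothionein genes was -0.015, with Mt2 at 0.21 ± 0.083 (adjusted p = 0.478), Pgd at -0.10 ± 0.037 (adjusted p = 0.385), Prdx1 at -0.066 ± 0.044 and Gpx4 at 0.035 ± 0.081. For 18 tested clock genes the median was 0.050, with Bhlhe40 at 0.10 ± 0.037 (adjusted p = 0.392), Per2 at 0.12 ± 0.055 (adjusted p = 0.547) and Clock at 0.0087 ± 0.036.

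Principal components of the 12 libraries, over the 500 most variable genes, placed the difference on the second component. The leading genes of PC2 were Gm24497, Gm21887, Gm24305, Gm26035, n-R5-8s1, Gm13192, Gm26064 and Gm24514, and none of them was called in LEU vs. MET. PC2 held 11.5% of the variance, with a mean score of 3.90 ± 1.98 (SD, n = 6) in LEU and -3.90 ± 5.38 in MET, and an exact permutation test, two-sided, gave an adjusted p of 0.00433 over 2 components, from the smallest p the test allows. PC1, with 20.9% of the variance, had a difference of 3.55 (exact permutation test, adjusted p = 0.379), and the gene Gm24305 alone carried 54.3% of its squared loadings. Without that gene the difference was 7.48 on PC1 and 4.88 on PC2, and only the first of these passed (exact permutation test, adjusted p = 0.0476 and 0.13). The PC2 difference did not pass without MET replicate 3, LEU replicate 4 or LEU replicate 5 (exact permutation test, adjusted p = 0.113, 0.0693 and 0.0519).

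These data set limits on what could be seen. The median size of the log2 fold change over all genes was 0.066, and the median half-width of the 95% interval was 0.16, with 0.079 for the 2218 genes of at least 100 CPM and 0.41 for the 6552 genes of under 10 CPM. The number of calls differed between the models. It was 12 over the 30 libraries, 44 without MET+LEU replicate 6, a library in which the 10 most abundant genes took 23.2% of the counts, and 164 in the MET and LEU libraries alone. Leaving out LEU replicate 1 left 1 call, Ccna2.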

How the data were processed

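RNA of 30 C2C12 libraries in 5 groups was measured by total RNA-seq after ribosomal RNA depletion. The authors deposited raw counts of reads per gene, as whole numbers, for all libraries in 1 table. Per the submitters' processing notes, cutadapt 1.16, STAR 2.7.6a, featureCounts 1.6.3 and DESeq2 1.30.1 were used with build GRCm38. The annotation release and the strand setting are not given in the sources used here, so reads of overlapping genes may be shared. Symbols and coordinates come from GENCODE M21, which held 55227 of 55487 identifiers, and 0.0043% of counts were on the others. Where a symbol had several identifiers, the one with most counts was used.

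All 30 libraries entered 1 model with 5 group means in edgeR 4.0.16 (R 4.3.3), after filterByExpr with a minimum count of 10 and a minimum total of 15 and TMM scaling. LEU vs. MET was tested with edgeR's robust quasi-likelihood method, and p-values were adjusted by Benjamini-Hochberg across 15907 genes, with a threshold of 0.05. SEs were the log2 fold change divided by the root of F, and intervals are 95%. Single library measures were compared by exact permutation tests (SciPy 1.17.1). DESeq2 1.42.0, limma 3.58.1, other scalings, filters, offsets and left-out libraries were alternatives, of which the length offset and the model without MET+LEU were chosen after seeing the data. Named were the called genes up to 15 in each direction, per list the called members or the 2 with the lowest p and the 2 most abundant, and a fixed set of sensors, kinases and muscle genes, and any further gene was picked with its values known. Members, lists and tests were chosen with earlier results of these data known. Promoter sequences and motif windows are from RefSeq (GRCm38.p6). Some genes that these rules name are not reported here.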

Additional observations from a re-analysis of the deposited data

Results flagged for a closer look

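In 15 of 304 groups of 6 libraries, 1 library stood apart from the other 5 by Dixon's ratio (critical value 0.625). Chance alone flags about 1 in 20 groups. Among called genes, Kif20a was at 19.1 CPM in MET replicate 6, where the others ran from 13.4 to 14.3 CPM. Ttn was at 27974 CPM in LEU replicate 6, with the others between 25968 and 26407 CPM, and mt-Tw was at 9.66 CPM in MET replicate 3, with the others between 10.8 and 11.4 CPM.

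In MET replicate 6, Pkm was at 1494 CPM (others 1318 to 1349) and H2-K1 at 33.0 CPM (others 25.3 to 27.2). In the other MET libraries, Tbc1d1 was at 165 CPM in replicate 3 (others 151 to 156), Rars was at 105 CPM in replicate 5 (others 86.1 to 92.4) and Col3a1 was at 4596 CPM in replicate 1 (others 4758 to 4812). In LEU, Scd1 was at 566 CPM in replicate 1 (others 527 to 533), Myog was at 1012 CPM in replicate 2 (others 1041 to 1058), Fos was at 10.2 CPM in replicate 4 (others 12.7 to 14.4) and Hist1h1c was at 201 CPM in replicate 6 (others 224 to 232). Nuclear ribosomal RNA took 1.06% of the counts of LEU replicate 3 (others 0.507% to 0.655%). The mean transcript length weighted by counts was 7880 bases in LEU replicate 6 (others 7599 to 7699). The PC1 score was -11.0 in LEU replicate 5 (others 2.55 to 5.58).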

How the results depend on the processing

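The number of genes called in LEU vs. MET (12, with 7 higher and 5 lower) changed with the model. It was 55 (26 higher, 29 lower) by the DESeq2 Wald test, about 1.2e+02 (59 and 64) by limma-voom with quality weights, 164 (85 and 79) with only the MET and LEU libraries, 4 (1 and 3) with only the serum-deprived libraries, 44 (24 and 20) without MET+LEU replicate 6, 44 (23 and 21) without all MET+LEU libraries, 22 (10 and 12) with a GC offset, 19 (12 and 7) with a length offset and 1 (0 and 1) at an adjusted p under 0.01. Genes called higher numbered 3 with a filter of more than 5 counts in total and 11 with at least 10 counts in every library. Leaving out each MET or LEU replicate gave 1 to 16 calls, 0 to 9 higher and 1 to 7 lower, and the lowest count came without LEU replicate 1. The cause was not tested.

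Same-numbered MET and LEU libraries had correlations of their deviations from -0.36 to 0.11, with 1 of 6 over 0.1 and 0 libraries closest to their own number. These values show no pairing by number between MET and LEU, but they cannot exclude it, and the labels do not say. The replicate block gave 21 calls (13 higher, 8 lower), and the replicate block with a GC offset gave 38 (21 and 17).

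Ccna2 passed in 27 of 27 alternatives, mt-Tw in 26, Tubb5 in 24, Kif20a in 21, Coro6 and Cxcl12 in 19, Mical3 in 18, Best3 in 17, Ttn in 16, Pde4dip in 15 and Pclaf in 14. In the 12 fits without 1 MET or LEU library, Ccna2 passed in 12, mt-Tw in 11, Tubb5 in 9, Kif20a and Mical3 in 6, Coro6 and Cxcl12 in 5, Ttn, Best3 and Pde4dip in 3 and Pclaf in 1. Without Gm24305 the LEU minus MET difference was 7.48 on PC1 and 4.88 on PC2, and leaving out 1 library gave 0.377 to 7.14 on PC1 and 5.57 to 9.22 on PC2, where the difference did not pass without MET replicate 3, LEU replicate 4 or LEU replicate 5.

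Values near 0 changed sign. With the GC offset, the replicate block with GC offset, the filter of more than 5 counts and the length offset, Rpsa was at -0.0041, -0.0040, -0.0025 and -0.0019. With the first 3 of these Hsp90ab1 was at -0.0036, -0.0032 and -0.0014. Leaving out 1 library gave -0.021 to 0.035 for Cab39, -0.028 to 0.16 for Castor1, -0.0020 to 0.018 for Clock, -0.019 to 0.0053 for Fosl2, -0.0021 to 0.043 for Hist1h1c, -0.011 to 0.012 for Hsp90ab1, -0.015 to 0.041 for Igfbp5, -0.036 to 0.0043 for Junb, -0.00034 to 0.037 for Ndufs1, -0.0068 to 0.020 for Prkaa1, -0.014 to 0.037 for Prkaa2, -0.025 to 0.0060 for Rplp0, -0.013 to 0.016 for Rpsa, -0.010 to 0.029 for Trim63, -0.050 to 0.0078 for Zfas1 and -0.41 to 0.018 for mt-Ta (log2 fold changes). The difference in total counts ran from -218380 to 466100 and that in GC content from -0.013 to 0.028 percentage points.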
